A study of Homo sapiens with 4 samples.

Results

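Peaks annotated to both coding sequence (CDS) and 3′ UTR were taken from the IGF2BP2 iRIP-seq peak lists of Jurkat cells. A peak was a member when the authors' region field named both CDS and 3′ UTR, in any shares, and no height or p value entered this choice. The rule selected 498 of 145715 peaks in replicate 1, which is 0.342% (95% Wilson interval 0.313 to 0.373), and 659 of 137934 peaks in replicate 2, which is 0.478% (0.443 to 0.516). The mean of both lists was 0.410% ± 0.0962 (SD, n = 2). These peaks are called spanning peaks here.

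Jurkat is an established human cell line of T-cell acute lymphoblastic leukemia (T-ALL), and it carried no knockdown, transgene or drug in this experiment. iRIP-seq crosslinks protein to RNA with UV light, precipitates 1 protein, here with an anti-IGF2BP2 antibody, and sequences the RNA that comes down with it. There were 2 IGF2BP2 iRIP libraries and 2 input libraries, and only the iRIP libraries, through their peak lists, gave values used here. Nothing in the labels says whether the replicates came from separate cultures, so the spread between them may be technical.

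IGF2BP2 belongs to a family of cytoplasmic RNA-binding proteins with RRM and KH domains, which are known to stabilise target mRNAs and to read the RNA modification N6-methyladenosine (m6A). The stop codon ends the CDS and opens the 3′ UTR, and m6A in mRNA is known to be dense around stop codons and in long last exons. Most mRNAs end in a poly(A) tail far beyond the stop codon, whereas replication-dependent histone mRNAs end in a stem-loop a short way after it.

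The CDS share places the end of the CDS inside the peak only if the CDS lay upstream of the 3′ UTR. The shares of a single peak do not tell this order, and it was not tested across the members. For peaks of which sequence could be read, this border was compared with the RefSeq sequence (GRCh38.p14), in windows around transcription starts that happened to reach the peak. Of the member peaks, 14 touched such a window, and 8 distinct borders could be read with 15 bases on each side. At 4 of the 8 borders the last triplet of the CDS was a stop codon. These 4 are shown because the border of the region field and the stop codon coincide in them, with the stop codon in capitals and all letters 5′ to 3′ on the strand of the gene.
CEBPB, chr20:50192057-50192086, plus strand: tccggccactgcTAGcgcggcccccgcgcg
CREBZF, chr11:85663796-85663825, minus strand: tctcttaaaatgTAGggtcaagtaatctgc
H4C16, chr12:14770758-14770787, minus strand: ggtttcggcggtTGAgctgtccccacagct
REPIN1, chr7:150372931-150372960, plus strand: aagcacgatgtcTGAgacggtgggcggggc

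CEBPB and CREBZF encode bZIP transcription factors, H4C16 encodes histone H4 and REPIN1 encodes a zinc finger protein. The CEBPB peak was listed in replicate 1 at 4 tags, with 42% of its length in CDS. The CREBZF peak was listed in both replicates, at 4 and 6 tags, and so was the H4C16 peak, at 5.5 and 6 tags. The REPIN1 peak was listed in replicate 2 at 6 tags. The lowest listed height was 4 tags (replicate 1) or 5 tags (replicate 2), so all 4 peaks stood near it.

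At the other 4 borders no stop codon stood at the end of the CDS share. CARS1, the cytosolic cysteinyl-tRNA synthetase, is shown as the example because its peak was listed in both replicates, with the same height of 6 tags.
CARS1, chr11:3029288-3029317, minus strand: atggaagctctgaatgtaagtgtcacgatt

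The border of this CARS1 peak lay after the first 15 of the 30 bases. The remaining 3 borders belonged to a second CARS1 peak of replicate 1 and to a peak of ACADVL, a mitochondrial acyl-CoA dehydrogenase, in each replicate. The ACADVL peaks both began at chr17:7220101 on the plus strand. The 3′ UTR held 34% of the replicate 1 peak, which ended at 7220150. It held 17% of the replicate 2 peak, which ran to 7220200, held 80% CDS and named a further region. The added downstream bases thus held CDS and no 3′ UTR, so the CDS share does not mark a CDS end at ACADVL. A CDS end inside the peak was seen at some members and was not established for all.

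The deposited lists covered the genome in steps of 50 nt, and the shortest peaks, listed as 51 nt, held 50 bases. The height of such a peak was a number of tags, and the height of a longer peak was a mean over its 50 nt steps. How many reads each library had is unknown, so heights were tested only within a replicate, and heights of both replicates set side by side are not adjusted for depth. All intervals cover counting error only. T cell genes carried peaks in both lists, as with ZAP70 (37 and 39 peaks), LCK (12 and 12) and CD247 (11 and 14), and LAT and CD3D also had peaks in both. Of the 7 T cell markers with a known strand, CD2 had 2 peaks in replicate 1 only and CD28 had 3 in replicate 2 only. The markers of other blood cells could be read for CD79A (no peak in replicate 1 and 1 peak in replicate 2) and CD14 (no peak in either list).

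Spanning peaks that named CDS and 3′ UTR and nothing else were 405 of 498 (81.3%) in replicate 1 and 517 of 659 (78.5%) in replicate 2. An intron was also named in 79 and 112 spanning peaks, a noncoding exon in 11 and 29, and a 5′ UTR in 7 and 7, at which the same bases could carry both UTR names. The CDS held the larger share in 283 and 397 peaks, the 3′ UTR in 209 and 249, and both were equal in 6 and 13. The median CDS share was 54% and 58%. The peaks with these regions alone were sorted by CDS share into 4 classes of equal width. From the class with least CDS to that with most, they numbered 85, 102, 98 and 120 in replicate 1 and 96, 122, 145 and 154 in replicate 2. In both lists the class with most CDS held the most peaks. Peaks of at least 10 tags numbered 3, 3, 8 and 9 over these classes in replicate 1 and 15, 18, 28 and 36 in replicate 2.

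The border marked by the authors was often not the last one of the gene. Another CDS peak of the same gene lay further downstream of 155 spanning peaks (31.1%) in replicate 1 and of 211 (32.0%) in replicate 2. The distance from the peak to the RefSeq 3′ end of the gene could be measured for 487 and 631 peaks, and its median was 2492 nt and 2259 nt. Its quartiles were 756 and 8228 nt in replicate 1 and 620 and 6969 nt in replicate 2. Peaks within 1000 nt of the gene end were 137 (28.1%) and 206 (32.6%), and peaks more than 10000 nt from it were 111 (22.8%) and 124 (19.7%). The share of spanning peaks that the other replicate overlapped was 35.0% and 32.5% near the gene end and 38.7% and 33.9% far from it. Spanning peaks thus lay both near the ends of gene intervals and far from them, and the overlapped shares at both places lay close together in each list. The distance is genomic, with introns counted, so it does not give the place in the transcript. In replicate 1 the peaks of the histone genes H2BC4 and H2BC18 lay 10331 and 29212 nt from the interval end. No CDS peak was listed further downstream at either gene.

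The heights of spanning peaks were low, with a tail of taller peaks. Their median was 5 tags (replicate 1) and 7 tags (replicate 2), the 90th percentile was 9 and 13 tags, and the highest spanning peaks had 57 and 45.7 tags. At the lowest height stood 199 spanning peaks (40%) in replicate 1 and 181 (27.5%) in replicate 2, against 74.3% and 62.6% of all listed peaks. At least 10 tags were reached by 33 spanning peaks of replicate 1, which is 6.63% (4.76 to 9.16), against 1.68% of all peaks in that list. In replicate 2 they were 140 peaks, or 21.2% (18.3 to 24.5), against 5.97% of all peaks. In both lists spanning peaks reached this height more often than the list as a whole.

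Compared with the regions on both sides, spanning peaks were taller. In replicate 1, 6.63% of them reached 10 tags against 3.22% of the peaks wholly in CDS (adjusted exact p = 0.000340) and 1.56% of the 3′ UTR peaks without CDS (adjusted exact p = 7.64e-09). In replicate 2, 21.2% reached it against 9.22% of the peaks wholly in CDS (adjusted exact p = 7.82e-18) and 3.85% of the 3′ UTR peaks without CDS (adjusted p = 3.25e-42). Peaks that spanned the start of the CDS, from 5′ UTR into CDS, were the taller class. They reached 10 tags in 15.4% of cases in replicate 1, a difference of -8.80 percentage points (adjusted exact p = 1.92e-06), and in 25.9% in replicate 2, a difference of -4.62 points (adjusted p = 0.0338). The last difference was not past the threshold with 51-nt peaks only (adjusted exact p = 0.145) or with p values under 0.001 (adjusted p = 0.0901). These are two-sided Fisher's exact tests with Benjamini-Hochberg adjustment over the 14 tests made. They compare classes of peaks within a list and treat peaks as independent, which neighbouring peaks of a gene are not, so the p values are likely too small.

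Spanning peaks with a listed length of 51 nt were 410 in replicate 1, or 0.290% of the 141538 peaks of that length, and 473 in replicate 2, or 0.362% of 130589. Longer spanning peaks were 88 and 186, or 2.11% and 2.53% of the longer peaks. A longer peak covers more positions at which a border can lie. The 51-nt spanning peaks had a median of 5 and 6 tags, and 26 (6.34%, 4.36 to 9.13) and 82 (17.3%, 14.2 to 21) of them reached 10 tags. The longer ones reached it in 7 cases (7.95%, 3.91 to 15.5) and 58 cases (31.2%, 25 to 38.2), against 9.46% and 22.6% of all longer peaks, so the longer spanning peaks of replicate 1 were not taller than other long peaks.

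The replicates were compared by overlap of at least 1 base on the same strand. A peak of replicate 2 overlapped 192 of the 498 spanning peaks of replicate 1, which is 38.6% (34.4 to 42.9), against 9.19% of all peaks in that list. A peak of replicate 1 overlapped 220 of the 659 spanning peaks of replicate 2, which is 33.4% (29.9 to 37.1), against 9.62% of all peaks. The mean share was 36.0% ± 3.66 (SD, n = 2). Most spanning peaks, 306 and 439, had no partner in the other list. For 51-nt spanning peaks the overlapped share was 31.5% (27.2 to 36.1) and 23.5% (19.9 to 27.5), against 7.80% and 7.42% of all 51-nt peaks. For longer ones it was 71.6% (61.4 to 80) and 58.6% (51.4 to 65.4), against 56.4% and 48.7% of all longer peaks. Within the same list, a peak also lay on the opposite strand at 8 spanning peaks (1.61%) of replicate 1 and at 5 (0.759%) of replicate 2. Over all peaks these shares were 1.68% and 2.89%.

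Over all heights, the overlap of spanning peaks was above that of both neighbouring regions. In replicate 1 it exceeded that of peaks wholly in CDS (30.5%) by 8.07 percentage points (adjusted p = 0.000340, Fisher's exact test) and in replicate 2 (22.0%) by 11.4 points (adjusted p = 4.24e-10). Against 3′ UTR peaks without CDS (15.1% and 12.6%) the difference was 23.5 points (adjusted exact p = 2.71e-29) and 20.7 points (adjusted p = 1.21e-32). Against peaks across 5′ UTR and CDS (58.4% and 46.7%) it was -19.9 points (adjusted exact p = 1.71e-11) and -13.4 points (adjusted p = 7.49e-08). With 51-nt peaks only, the difference from peaks wholly in CDS was 4.91 points (adjusted exact p = 0.0379) and 6.33 points (adjusted p = 0.00117).

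Overlap was lowest at the lowest height, and spanning peaks were taller, so the shares are also given by height. At the lowest height the other replicate overlapped 33 of 199 spanning peaks (16.6%, 12.1 to 22.4) in replicate 1 and 21 of 181 (11.6%, 7.71 to 17.1) in replicate 2. Peaks wholly in CDS of that height were overlapped in 19.1% and 10.5% of cases, which lies within these intervals. Between the lowest height and 6 tags the shares were 44.3% (36.3 to 52.6) against 33.9% for CDS peaks in replicate 1 and 58.3% (32.0 to 80.7, 12 peaks) against 40.6% in replicate 2. In replicate 2 a height between 5 and 6 tags can only be the mean of a longer peak. There the longer spanning peaks were overlapped more often (58.6%) than the 51-nt ones (23.5%). From 6 to under 10 tags they were 60.3% (51.6 to 68.4) against 48.0% for CDS peaks in replicate 1 and 31.9% (27.1 to 37.1) against 24.6% in replicate 2. At 10 tags or more they were 63.6% (46.6 to 77.8) against 68.1%, and 62.9% (54.6 to 70.4) against 58.5%. At the lowest and at the tallest heights, then, spanning peaks were not set apart from CDS peaks beyond counting error. With at least 10 tags required in both lists, the difference from peaks wholly in CDS was 15 points in replicate 1 (adjusted exact p = 0.208) and 7.55 points in replicate 2 (0.0511), so the calls were lost while the difference in replicate 1 was not smaller. That from 3′ UTR peaks was 12.6 points (adjusted exact p = 0.466) and 1.79 points (0.845), and that from peaks across 5′ UTR and CDS was -20.4 points (adjusted exact p = 0.0513) in replicate 1.

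Spanning peaks of both lists met in 178 pairs in 169 genes, and 115 of these pairs had the same start and end. Partners of another class alone overlapped 14 spanning peaks of replicate 1 and 42 of replicate 2. The median height of the paired peaks was 6 and 9 tags. Without adjustment for depth or for unequal peak length, the height was greater in replicate 2 in 135 pairs, greater in replicate 1 in 24 and equal in 19. Across the pairs the log2 heights had a Pearson correlation of 0.474 and a Spearman correlation of 0.345, which describe peaks of 2 libraries and carry no test. Both heights were at least 10 tags in 18 pairs, and both were at the lowest height in 8.

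The tallest pair lay in RPL27A, a protein of the large ribosomal subunit (ENSG00000166441.13), at chr11:8684001-8684050 on the plus strand in replicate 1. It had 57 tags in replicate 1, with 90% of the peak in CDS, and 42 tags in replicate 2, where the peak ran to 8684100 and 76% was CDS. The remaining 10% in replicate 1 was named both 3′ UTR and 5′ UTR, and so were 5% in replicate 2. The bases that replicate 2 added downstream thus held CDS and no 3′ UTR. CDS therefore lay downstream of the bases with both UTR names. The tallest pair may lie at the start of a CDS, and a CDS end was not established there. In replicate 1 it lay 5822 nt before the gene end, with another CDS peak downstream. A peak was also listed there on the opposite strand in replicate 1. RPL31, also of the large subunit (ENSG00000071082.11), had 33.3 and 45.7 tags at chr2:101004151-101004300 on the plus strand, with 89% of the peak in CDS, 7% in 3′ UTR and the rest in intron. Both ribosomal protein genes were far above the median of the paired peaks in both lists.

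LEF1, a transcription factor of Wnt signalling in lymphoid cells (ENSG00000138795.10), had 17 and 15.5 tags at chr4:108083351-108083450 on the minus strand. Its peak held 95% CDS and 1% 3′ UTR, so it met the rule by a margin of about 1 base, and it lay 35803 nt before the gene end. LEF1 was also among the genes with the most spanning peaks, with 3 in each list, and all 3 overlapped between the replicates. Its peak at chr4:108063601-108063650 had 9 and 11 tags, and its peak at chr4:108048551-108048700, which lay 1003 nt before the gene end with 81% in 3′ UTR, had 4.67 and 8 tags. The tallest of the LEF1 peaks was thus the one farthest from the gene end.

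The other genes with 6 spanning peaks over both lists were MYO1G and WDR62, each with 2 in replicate 1 and 4 in replicate 2. MYO1G encodes a class I myosin of blood cells. Its peak at chr7:44962951-44963000 on the minus strand, with 70% in CDS, had 6 tags in the first list and 15 in the second. WDR62 encodes a protein of the spindle poles, and its paired peaks at chr19:36102001-36102050 and chr19:36102701-36102750 had 6 and 7 tags and 6 and 6 tags. In both genes only some of the spanning peaks of replicate 2 met one of replicate 1.

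Histone genes supplied 3 of the 12 tallest pairs. At H3C4, a histone H3 gene, the pair had 15.5 and 17 tags at chr6:26197051-26197150 on the minus strand, with 9% in CDS and 91% in 3′ UTR. Its identifier, ENSG00000282988.2, was named by position, and the lists also hold another identifier at this place. At H2BC4, a histone H2B gene (ENSG00000180596.7), replicate 1 had 26 tags at chr6:26123501-26123550 and replicate 2 had 12.7 tags over chr6:26123451-26123800. This was among the 24 pairs taller in replicate 1, though the height of replicate 2 is a mean over a longer peak. At H2BC18, another histone H2B gene (ENSG00000203814.6), the heights were 11.5 and 15.8 tags from chr1:149811901 on the minus strand. Histone and ribosomal protein genes have near-identical copies, and only uniquely mapped reads were kept, so their heights are uncertain.

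The remaining tall pairs had 11 or 12 tags in replicate 1 and more in replicate 2. RPL38, of the large ribosomal subunit, had 12 and 22 tags at chr17:74209801-74209850, with 52% in CDS and 42% in 3′ UTR. KPNB1, the nuclear import receptor importin beta, had 12 and 17 tags at chr17:47682401-47682450, and its peak held 92% 3′ UTR and 2% CDS. ARHGEF1, a guanine nucleotide exchange factor, had 12 and 18 tags at chr19:41893251-41893300, with the border near the middle of the peak. The ERGIC1 peak at chr5:172914701-172914750, in a gene of the compartment between the endoplasmic reticulum and the Golgi, had 12 and 13 tags. PNN, which encodes the nuclear speckle protein pinin, had 11 and 22 tags at chr14:39177551-39177600. These peaks all lay on the plus strand. EEF1D, a subunit of translation elongation factor 1, had 11 and 13.7 tags. A further CDS peak lay downstream in both lists at ARHGEF1, ERGIC1 and PNN and in replicate 2 only at EEF1D, whereas RPL38 and KPNB1 had none in either list.

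Some tall spanning peaks had no partner in the other list. In replicate 1 the tallest were a second RPL31 peak with 51 tags at chr2:101005951-101006000 and H2AC14, a histone H2A gene, with 39 tags at chr6:27814351-27814400. P4HB, a protein disulfide isomerase, followed with 15 tags, H2BC12 with 14 and HNRNPU, a nuclear RNA-binding protein, with 13. In replicate 2 they were RACK1, a scaffold on the small ribosomal subunit, with 35.5 tags at chr5:181243651-181243750 and RPS21, of the small subunit, with 30 tags at chr20:62387801-62387850. RPL37 followed with 29 tags, the splicing protein gene SRRM2 with 28 and ACTB, which encodes beta-actin, with 24.4. A height far above the lowest in 1 list thus did not ensure a listed peak in the other.

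Further peaks of the same gene within 500 nt, in any region including introns, were sought along the strand. No neighbour was listed at 263 spanning peaks (52.8%) in replicate 1 and at 291 (44.2%) in replicate 2, and neighbours on both sides were listed at 61 and 110. Neighbours on 1 side only lay upstream of 100 of 174 spanning peaks (57.5%) in replicate 1 (adjusted p = 0.0577, two-sided exact binomial test). In replicate 2 they lay upstream of 174 of 258 (67.4%, adjusted p = 3.83e-08, two-sided exact binomial test). Upstream was read from the strand alone, so it need not be the CDS side of the spanning peak. The upstream excess passed the test in replicate 2 and not in replicate 1, and whether the replicates differed was not tested. The test took both sides as equally likely, yet a neighbour had to belong to the same gene. Of the spanning peaks in named genes, 8.21% and 9.35% lay 0 to 200 nt before the gene end. A further 9.03% and 11.4% lay 200 to 500 nt before it, with less room downstream. What excess this alone gives was not tested. Within 1000 nt the share in replicate 1 was 65.0% (adjusted exact p = 2.83e-05).

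Within its gene a spanning peak was seldom alone. It was the only CDS or UTR peak of the gene in 56 cases (11.2%) in replicate 1 and in 51 (7.74%) in replicate 2. Where the gene had other such peaks, the spanning peak was the highest or tied with the highest in 104 of 442 cases (23.5%) and in 112 of 608 (18.4%). A peak wholly in CDS was listed in 262 of the 456 genes with a spanning peak in replicate 1 and in 370 of the 584 in replicate 2. A 3′ UTR peak without CDS was listed in 156 and 223 of them.

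Over both lists 845 genes had a spanning peak, or 9.91% of the 8527 genes with a CDS or UTR peak, and 195 (2.29%) had one in both replicates. The 195 genes are 42.8% of the 456 genes of replicate 1 and 33.4% of the 584 of replicate 2. A single spanning peak was listed in 417 and 520 genes, and the most in a gene was 3 and 4. By position 813 of the 845 genes received a RefSeq symbol. Chromosome 19, which is rich in genes, held 59 spanning peaks (11.8%) in replicate 1 and 91 (13.8%) in replicate 2, against 9.31% and 9.55% of the peaks wholly in CDS.

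Gene groups are described by how many of their genes with a CDS or UTR peak also had a spanning peak, beside the 9.91% in either list and 2.29% in both over all genes. No test was made on these groups, many of whose genes are known for strong expression, and transcript levels were not analysed here. Of 47 genes of the large ribosomal subunit, 11 (23.4%) had a spanning peak in either list and 6 in both, namely RPL27A, RPL3, RPL31, RPL37, RPL38 and RPL4. Of 28 genes of the small subunit, 7 (25%) had one in either list and 3 in both, RPS20, RPS21 and RPS29. At RPS20 the spanning peaks of the replicates did not overlap each other. The RPS29 pair had 5 and 6.5 tags, and at RPS21, which had the 30-tag peak of replicate 2, the pair at chr20:62388451-62388500 had 4 and 6 tags.

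Of 57 histone genes, 19 (33.3%) had a spanning peak in either list and 9 in both. The 9 were H1-10, H2AC21, H2BC18, H2BC4, H3C12, H3C4, H4C16, H4C2 and H4C4, which cover the linker and all 4 core histone families. Among translation initiation factors 9 of 32 (28.1%) had one in either list and 5 in both, EIF2B5, EIF3F, EIF3G, EIF4B and EIF4G1. EIF4G1, the scaffold of the cap-binding complex, had 8.5 and 12.5 tags at chr3:184320901-184321000, and EIF3G, a subunit of eIF3, had 7 and 12 tags. Of 8 elongation and poly(A)-binding genes, 4 (50%) had one in either list and 2 in both, EEF1D and EEF2. EEF2, the elongation factor for translocation, had 8 and 19 tags.

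Of 28 hnRNP and SR protein genes, 11 (39.3%) had a spanning peak in either list and 4 in both, namely HNRNPA2B1, HNRNPU, HNRNPUL1 and SRSF7. The pairs had 4.5 and 7.5 tags at HNRNPUL1 and 4 and 5 tags at SRSF7. At HNRNPA2B1 and HNRNPU the spanning peaks of the replicates did not overlap each other. Heat shock and TRiC chaperonin genes had one in 6 of 21 cases (28.6%), and in both lists at HSP90AA1 (7.75 and 9 tags) and HSPA8 (5.67 and 6.25 tags). Actin and tubulin genes, with the actin-severing factor gene CFL1, had one in 6 of 11 cases (54.5%), of which CFL1 alone was in both lists, at 4 and 8.89 tags. Of 13 glycolytic enzyme genes 4 (30.8%) had one, and none in both lists.

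Of the 13 T-ALL genes that the study names, 12 had a CDS or UTR peak and 2 (16.7%) had a spanning peak, both in replicate 1 only. RUNX1, a transcription factor of blood development, had 1 peak of 4 tags at chr21:34792101-34792150, and DNMT3A, a DNA methyltransferase, had 1 of 5 tags at chr2:25234251-25234300. No spanning peak was listed in either replicate at NOTCH1, BCL11B, FBXW7, STAT5B, DNM2, AKT1, AKT2, MTOR, ABL1 and RPL11, although NOTCH1 had 85 CDS or UTR peaks over both lists. The study picked these genes with the help of these libraries, so they are no independent sample.

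Of 18 known IGF2BP targets and control genes, 13 had a CDS or UTR peak, and 4 (30.8%) had a spanning peak. HMGA1, a chromatin protein, had 10 tags at chr6:34244801-34245050 in replicate 1 and 22.5 tags over its first 100 bases in replicate 2. HNRNPA2B1, an m6A-binding hnRNP, had 8.5 tags at chr7:26192451-26192550 in replicate 1 and 7 tags at chr7:26192301-26192350 in replicate 2, so its peaks did not overlap. IGF2BP1 had 4 tags in replicate 1 only, and ACTB had 24.4 tags in replicate 2 only, at chr7:5527651-5527900. MYC, IGF2BP3, GAPDH, CCND2, METTL3, YTHDF1, YTHDF2, YTHDF3 and LIN28B had CDS or UTR peaks and no spanning peak in either list.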

How the data were processed

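IGF2BP2 iRIP-seq libraries of Jurkat cells were sequenced as 150 bp read pairs. According to the methods, the authors aligned reads with TopHat 2, kept unique ones, called peaks per library against 500 simulations per gene at p under 0.05, and removed peaks overlapping input peaks. The submitters' processing notes name bcl2fastq, TopHat2 and GRCh38, and the annotation release is not given in the sources used here. The deposited height is a signal in tags, without depth normalization. The authors' p-value served only as a filter. Region shares and gene identifiers were used as deposited. The inputs were not analysed here.

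Positions were read as half-open and are printed from 1. Identifiers were named by the RefSeq gene (GRCh38.p14) on their strand that held at least 80% of their CDS or UTR peaks, within 1000 nt, which named 8172 of 8527 (95.8%), against 1321 (15.5%) after a shift of 1000000 nt. Of the rest, 151 fell in several genes, 102 in none, and 102 shared a symbol. Spanning, wholly CDS, 3′ UTR without CDS, and 5′ UTR with CDS peaks were compared in each list with Fisher's exact test, two-sided, and neighbours by exact binomial tests, with Benjamini-Hochberg adjustment over 14 tests and a threshold of 0.05. The 95% Wilson intervals of shares leave out all but counting error, and PCR copies of a molecule are not independent reads. Genes named are the 12 tallest pairs, the 5 tallest unpaired peaks per list, the 3 genes with most spanning peaks, the T-ALL and IGF2BP target lists, and per further list the 2 genes with the tallest pair. Members of the groups in both lists are named besides. Members and gene lists were chosen with earlier results of these data known. Alternatives were peak length, regions named, p value, height, share, overlap rule, neighbour distance and each replicate left out. Overlap, classes, naming and Fisher's exact test were tested on simulated data, whereas the neighbour search, the binomial test and the adjustment were not. Scripts ran under Python 3.11.15 and used scipy 1.17.1, pandas 2.3.3, numpy 2.4.6 and matplotlib 3.10.9.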

Additional observations from a re-analysis of the deposited data

How the results depend on the processing

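Of 135 alternative values, 103 kept their call or moved within the spread, 24 moved beyond it, 7 lost a call, 1 gained a call and none reversed. The 103 include the means of both lists with 1 replicate left out. With 2 lists such a value always lies within the SD, so these say nothing on stability. Values are given for replicate 1 and then replicate 2. The share of spanning peaks was 0.290% and 0.362% with 51-nt peaks, 0.278% and 0.375% with CDS and 3′ UTR alone named, 1.00% and 1.26% with p under 0.001, 1.34% and 1.70% with at least 10 tags, and 0.266% and 0.386% with at least 0.1 of each region. The overlapped share was 31.5% and 23.5% with 51-nt peaks, 57.6% and 17.9% with at least 10 tags, and 46.6% and 40.1% when touching peaks counted. In replicate 2 it was 22.1% with p under 0.001, 29.6% at 50% overlap and 27.0% with spanning partners alone. With at least 10 tags, overlap differed from wholly CDS peaks by 15 points (adjusted exact p = 0.208) and 7.55 points (0.0511), from 3′ UTR peaks by 12.6 (0.466) and 1.79 (0.845), and from 5′ UTR and CDS peaks in replicate 1 by -20.4 (0.0513). In replicate 2 the share of at least 10 tags differed from 5′ UTR and CDS peaks by -3.68 points with 51-nt peaks and by -6.36 with p under 0.001. Neighbours within 1000 nt lay upstream in 65.0% in replicate 1. Genes in both lists were 116 with 51-nt peaks, 57 with p under 0.001 and 20 with at least 10 tags. With 1 replicate left out, the genes with a spanning peak were 456 to 584. The cause of these shifts was not tested. No paired analysis was possible because the peak lists used here are those of the iRIP libraries alone, so no numbered pair of iRIP and input could be compared. Depth is unknown, so a peak missing from a list may have been too shallow to be called.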
